A study of Sus scrofa with 8 samples.

Results

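The mitochondrial carriers of the SLC25 family were examined in young and old pig liver. The members were taken as the rows of the deposited mRNA table whose Ensembl identifier carries a pig gene symbol of the form SLC25A plus a number. This gave 32 carriers out of 21607 mRNA identifiers, of which 11654 could be given a symbol. The name table holds 42 such symbols. The 10 without a row, SLC25A6, SLC25A10, SLC25A11, SLC25A21, SLC25A28, SLC25A30, SLC25A33, SLC25A34, SLC25A36 and SLC25A41, were not analysed here. Liver was taken from female pigs of the Chinese Yana breed, 2 young sows (YL) aged 180 days and 2 old sows (OL) aged 8 years, all unrelated, healthy, untreated and kept from food overnight before slaughter. Per the paper, the young sows had borne no litters, and the old sows were culled after many years of breeding. Age and breeding history therefore cannot be told apart here. Each sow gave 1 rRNA-depleted RNA-seq library of whole liver, so the spread within an age group is that between 2 animals. Old against young was the comparison of the study, which asked how the liver transcriptome differs with age.

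The SLC25 proteins sit mostly in the inner mitochondrial membrane, where they exchange metabolites between the cytosol and the matrix. They carry ADP and ATP, phosphate, citrate and malate, amino acids, acylcarnitines and cofactors, and so couple the cytosol to oxidative phosphorylation, fatty acid oxidation and the urea cycle. In the hepatocyte, citrin (SLC25A13) and the ornithine carrier SLC25A15 serve urea synthesis, SLC25A20 brings in fatty acids bound to carnitine, and SLC25A1 exports citrate for lipid synthesis.

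The values are reads scaled to library size (CPM), in which 1 read is worth the same for every gene of a library. Gene length does not enter them, so levels are compared here between libraries and not between genes. The mRNA table holds between 22482241 and 37555696 reads per library, and 3 reads correspond to between 0.0327 and 0.0487 CPM. Of 10 hepatocyte markers, 8 had a row, and their summed level was 48453 and 54610 CPM in the YL and 33727 and 40183 CPM in the OL, with ALB the largest part. Markers of macrophages (6 of 10 with a row, summing to 233 and 254 CPM in YL against 343 and 376 in OL), neutrophils (4 of 6, 0.098 and 0.393 against 6.03 and 2.06), T and NK cells (6 of 9, 9.32 and 11.2 against 20 and 11.7) and endothelial cells (4 of 8, 33.9 and 30.4 against 66.2 and 38.4) summed to more in both OL than in both YL. Erythroid markers summed to less (8 of 12, 622 and 429 against 308 and 407), nearly all of it HBB. Of the 7 above 0 in at least 2 libraries, 4 scarce members were higher in OL without overlap and 2 were lower. Among the rows tested of the other lists with higher sums, 4 of 6 for macrophages and 4 of 4 for neutrophils were higher without overlap. For T and NK cells 5 of 7 were higher and 1, a GZMA row, was lower. For endothelial cells 1 of 4 was higher and 0 were lower. KDR had 10.6 and 9.87 CPM in YL against 2.26 and 10.3 in OL, and LYVE1 8.89 and 8.01 against 36.5 and 7.49. Over all mRNAs these shares were 24.4% higher and 25.0% lower. The age groups overlapped in the sums of B and plasma cells (2.42 to 12.4), cholangiocytes (7.51 to 19.0), stellate cells and fibroblasts (12.9 to 48.3) and skeletal muscle (0.196 to 1.23). None of the markers with a row was at 0 in all 4 libraries. Old replicate 1 stood apart in 11 interferon-stimulated genes, which summed to 1824 CPM in it and to between 44.2 and 62.8 CPM in the other libraries. The part of these differences in the carrier values was not tested, and in whole liver fewer cells of a type and less RNA per cell cannot be told apart.

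On average the OL lay below the YL for most carriers tested and above them for the others, but the age groups overlapped in 15 of 30. The clearest of the lower ones were SLC25A20, the carnitine/acylcarnitine carrier, and SLC25A27, an uncoupling protein paralog. Their young means were 3.03 and 2.84 times the old means. In the other direction stood SLC25A25, an ATP-Mg/phosphate carrier, and SLC25A22, a glutamate carrier, at 4.70 and 3.23 times the young mean. Fold changes were fitted with limma on log2(CPM + 1), a scale on which the difference of a carrier with low values is understated, over the 16898 mRNAs above 0 in at least 2 libraries. Of the 32 carriers, 30 passed this filter. SLC25A31, the ADP/ATP carrier best known from the testis, was listed at 0 in all 4 libraries, and SLC25A53 had 7 reads in old replicate 1 (0.114 CPM) and none elsewhere.

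A call needed a limma p-value, adjusted over all mRNAs, under 0.05 and a log2 fold change beyond 1 in either direction. By this rule 0 of the 30 carriers and 0 of all mRNAs (0%) were called. The smallest adjusted p-value of a carrier was 0.213, which was also the smallest of any mRNA. At an unadjusted p-value under 0.05, 2 carriers were higher in OL, 6.67% of those tested against 6.78% of all mRNAs, and 5 were lower, 16.7% against 8.93%. Over all mRNAs this split was 1145 higher and 1509 lower, and it turned to 1495 higher and 955 lower with TMM scaling, where 2 carriers were higher and 3 lower. Without that scaling, 753 were higher and 1372 lower among the 9790 mRNAs tested with a mean of at least 1 CPM. Of the 25 carriers at that level, 2 were higher and 5 lower. In the exact test of edgeR, the test of the study, run on whole reads recovered from the values, 1 carrier, SLC25A25, was called higher (3.33% of the carriers, against 2.70% of mRNAs called higher), and 0 were called lower, against 0.456% of mRNAs. The quasi-likelihood test of edgeR called 0 carriers, with 4 at an unadjusted p-value under 0.05 (13.3%, against 14.6% of all mRNAs).

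Both old libraries lay below both young ones for 12 carriers, 40% of those tested, against 25.0% of all mRNAs tested. Both lay above for 3 carriers, 10% against 24.4%. The latter count was 8 without young replicate 2 and 7 without old replicate 1 or old replicate 2, where 34.5% to 35.5% of all mRNAs met it. The fitted log2 fold change was below 0 for 22 carriers and above 0 for 8, with a median of -0.33 against -0.023 over all mRNAs tested. With TMM scaling the split was 19 below and 11 above 0, with a median of -0.16 against 0.036 over all mRNAs. Abundant mRNAs as a whole had lower CPM in OL, which depends on the scaling. TMM scaling divides the CPM by 1.096 and 1.048 in YL and by 0.9324 and 0.9333 in OL, and so raises OL relative to YL. Whether abundant mRNAs were lower in OL with TMM scaling was not tested. Among mRNAs with a mean of at least 1 CPM, 32.8% had both old libraries below both young ones and the median was -0.15, against 10 of the 25 carriers at that level and a median of -0.35. Both old libraries lay above both young ones for 17.8% of these mRNAs and for 3 of the 25 carriers. With 2 libraries against 2, an exact permutation test cannot give a p-value below 0.333, so these counts are descriptions.

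**Figure D1:**
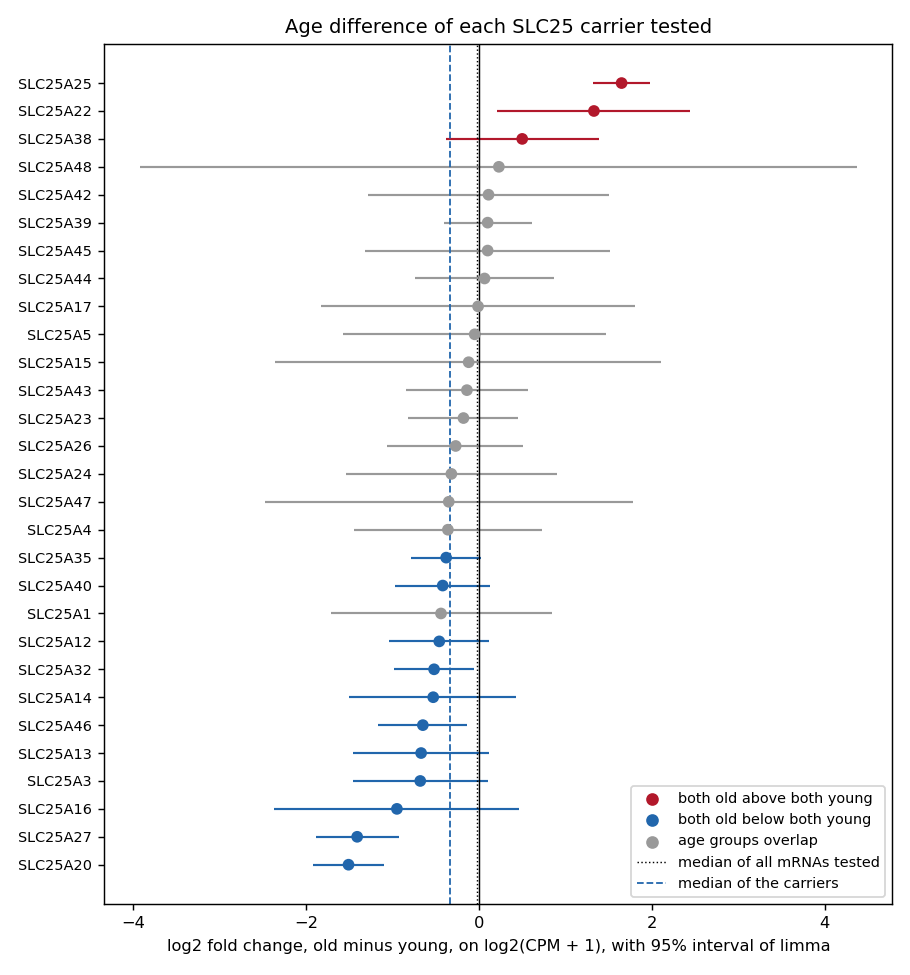
The log2 fold change of old minus young liver on log2(CPM + 1) for 29 of the 30 carriers tested (x axis), ordered by its size, with the 95% interval of limma as a line. SLC25A25 and SLC25A22 lie farthest to the right at 1.65 and 1.33, SLC25A27 and SLC25A20 farthest to the left at -1.41 and -1.51, and the median of the carriers (-0.33) lies left of that of all mRNAs (-0.023).

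SLC25A20 (ENSSSCG00000011366) moves acylcarnitines into the matrix in exchange for free carnitine, the step between the carnitine palmitoyltransferases CPT1A and CPT2. It had 30.3 and 29.5 CPM in the YL (2786 and 2555 reads) and 10.6 and 9.13 CPM in the OL (655 and 656 reads). The 2 young values differed by less than 1 CPM, both old values were far below them, and the mean was 3.03 times higher in YL. Its log2 fold change was -1.51 (± 0.133 SE, 95% interval from -1.92 to -1.10, limma adjusted p = 0.213). Dropping any single library gave between -1.61 and -1.41. The edgeR exact test gave -1.40 with an adjusted p-value of 0.126. CPT2, singled out here for its role, had 13.0 and 17.8 CPM in the YL and 10.5 and 12.2 CPM in the OL. CPT1A, likewise singled out, was at 30.3 and 10.0 CPM against 13.4 and 10.3, so its age groups overlapped.

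In the class of carnitine, cofactor and nucleotide carriers, which includes SLC25A20, 4 of 7 members were lower in OL without overlap. This is 57.1%, against 25.0% of all mRNAs, and the age groups of the other 3 overlapped. SLC25A16, a carrier linked to coenzyme A, had 3.84 and 8.68 CPM in the YL and 1.89 and 3.33 in the OL, a log2 fold change of -0.95 (± 0.465 SE, limma adjusted p = 0.444). It was -0.45 without young replicate 2 and -1.45 without young replicate 1. The old values were below the young ones, but the 2 young values were farther apart than the lower of them was from the nearest old value. SLC25A32, the folate and FAD carrier, had 2.68 and 2.45 CPM against 1.72 and 1.27 (log2 fold change -0.52, ± 0.153 SE, limma adjusted p = 0.288). In the RefSeq gene order SLC25A32 overlaps DCAF13, whose values were 3.02 and 3.48 CPM in YL and 1.87 and 1.77 in OL, and reads of the overlap may be shared between them. The S-adenosylmethionine carrier SLC25A26 was at 3.15 and 1.88 CPM in YL and 1.58 and 2.17 CPM in OL, so that old replicate 2 lay between the young livers.

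A pair of carriers in this class had old livers on either side of the young ones. SLC25A17, which carries cofactors across the peroxisomal membrane, was at 23.3 and 21.3 CPM in the YL, 37.8 in old replicate 1 and 12.7 in old replicate 2. For SLC25A42, a coenzyme A carrier, the values were 1.32 and 2.38 CPM in YL, 3.27 in old replicate 1 and 1.13 in old replicate 2. Both were thus highest in old replicate 1 and lowest in old replicate 2, with 95% intervals of the log2 fold change from -1.83 to 1.81 for SLC25A17 and from -1.29 to 1.50 for SLC25A42. Over the 7 members of the class the median log2 fold change was -0.52, and 4 had no overlap, all lower in OL (57.1%, against 25.0% of all mRNAs and 32.8% of those with a mean of at least 1 CPM).

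SLC25A25 (ENSSSCG00000005636) exchanges ATP-Mg for phosphate and thereby sets the adenine nucleotide content of the matrix. It was at 1.35 and 1.39 CPM in the YL (124 and 120 reads) and at 6.39 and 6.47 CPM in the OL (393 and 465 reads). The libraries of each age were nearly equal and the groups were far apart. Its log2 fold change was 1.65 (± 0.107 SE, 95% interval from 1.32 to 1.98, limma adjusted p = 0.213). Dropping any single library gave between 1.64 and 1.66. The exact test of edgeR gave a log2 fold change of 2.43 with an adjusted p-value of 0.00305, and over all alternatives the adjusted p-value ranged from 0.00305 to 0.425.

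The related ATP-Mg/phosphate carriers were scarce and did not share this pattern. SLC25A23 had 0.773 and 0.531 CPM in YL and 0.260 and 0.668 CPM in OL, on 16 to 71 reads. SLC25A24 had 0.327 and 1.59 CPM in young liver and 0.390 and 0.599 CPM in old liver, on 24 to 138 reads. The age groups overlapped in both, and the difference between these carriers and SLC25A25 was not tested.

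The ADP/ATP carriers exchange cytosolic ADP for matrix ATP, and SLC25A3 brings in the phosphate for ATP synthesis. SLC25A3 had 33.0 and 32.3 CPM in the YL and 16.1 and 24.9 CPM in the OL, a log2 fold change of -0.68 (± 0.258 SE, limma adjusted p = 0.361), which was -0.38 without old replicate 1 and -0.98 without old replicate 2. SLC25A4 (ANT1) had 79.3 and 106 CPM in YL and 54.0 and 92.9 CPM in OL. SLC25A5 (ANT2) was at 22.8 and 19.1 CPM in YL, 31.2 in old replicate 1 and 12.8 in old replicate 2. SLC25A3 was thus below both young livers in each old liver and SLC25A4 only in old replicate 1, whereas SLC25A5 was highest in old replicate 1 and lowest in old replicate 2. SLC25A4 and SLC25A5 are close paralogs, SLC25A5 has processed copies in mammalian genomes, and how reads shared among them were counted is not given in the sources used here.

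**Figure D2:**
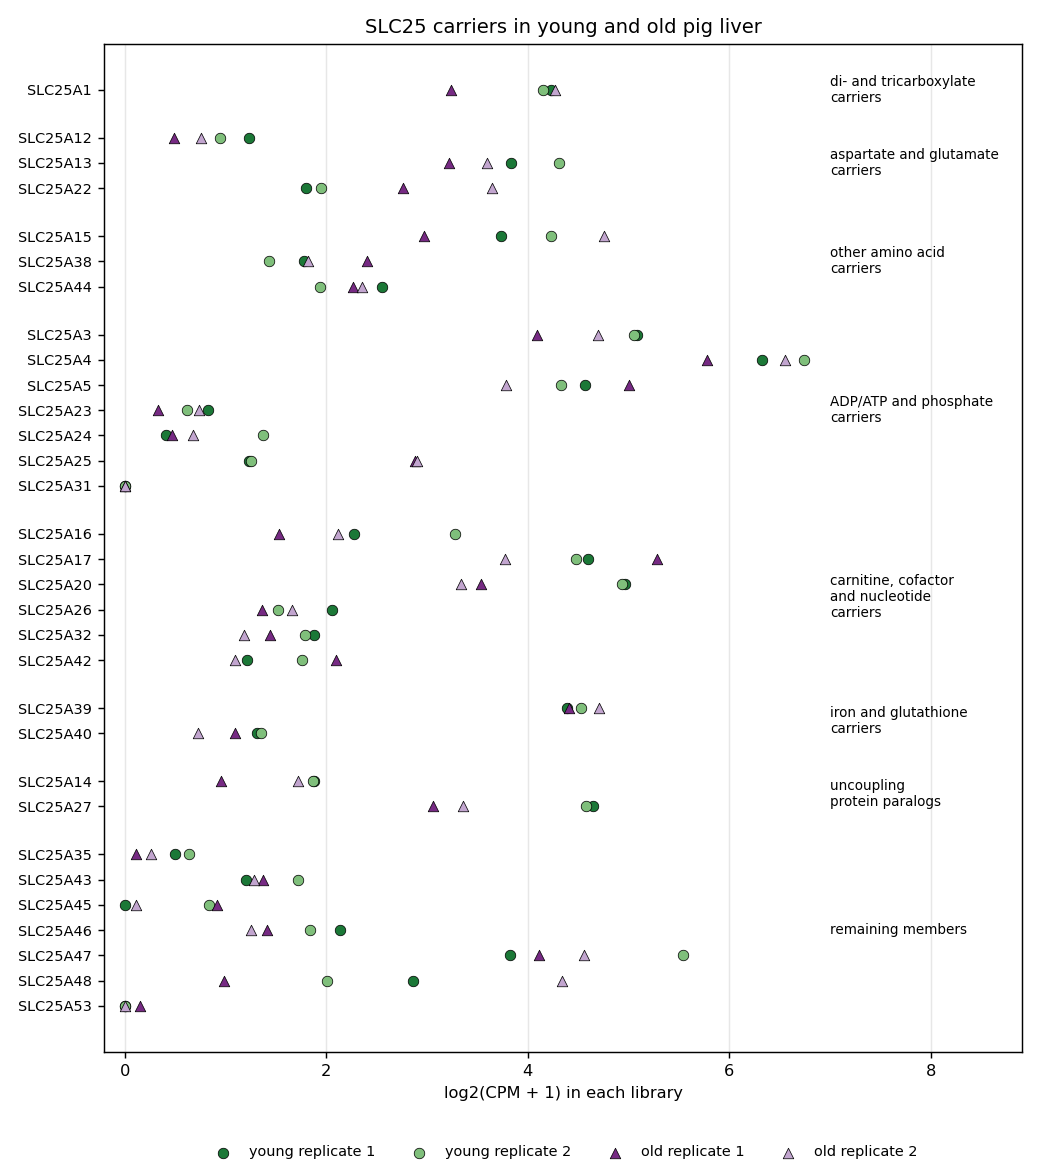
Expression of 31 of the 32 carriers as log2(CPM + 1) (x axis) in each of the 4 libraries, with circles for young and triangles for old livers, grouped by the cargo of the carriers. The circles and triangles are well apart for SLC25A20, SLC25A27 and SLC25A25, while SLC25A15 and SLC25A48 have the old libraries on either side of the young ones.

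Of the 3 carriers of aspartate and glutamate, 1 was higher and 2 were lower in OL, none with overlap. Over all mRNAs tested, 24.4% were higher and 25.0% lower without overlap, so 3 genes give no result about the class. SLC25A22 (ENSSSCG00000012844), which takes glutamate into the matrix, had 2.48 and 2.85 CPM in the YL (228 and 247 reads) and 5.77 and 11.5 CPM in the OL (355 and 825 reads). Both old livers were above both young ones, and they differed from each other far more than the young livers did. Its log2 fold change was 1.33 (± 0.366 SE, 95% interval from 0.21 to 2.44, limma adjusted p = 0.276). Dropping any single library gave between 0.89 and 1.77. GLUD1 and GLS2, enzymes of matrix glutamate that were singled out for this role, had overlapping age groups, with 88 and 107 CPM against 82.1 and 92.8 for GLUD1 and 34.4 and 26.8 against 15.2 and 34.6 for GLS2.

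Citrin (SLC25A13, ENSSSCG00000015336) exports aspartate from the matrix for the urea cycle and for the malate-aspartate shuttle. It was at 13.3 and 18.8 CPM in the YL (1220 and 1631 reads) and at 8.30 and 11.1 CPM in the OL (511 and 796 reads). All old values were below the young ones, and the log2 fold change was -0.67 (± 0.260 SE, 95% interval from -1.46 to 0.12, limma adjusted p = 0.369). Without young replicate 2 it was -0.43. Its paralog SLC25A12 (aralar) had 1.36 and 0.924 CPM in YL and 0.406 and 0.696 CPM in OL, a log2 fold change of -0.46 (± 0.190 SE, limma adjusted p = 0.383).

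The ornithine carrier SLC25A15 (ENSSSCG00000009373), which links the cytosolic and the matrix steps of the urea cycle, had 12.3 and 17.8 CPM in the YL (1133 and 1543 reads), 6.83 CPM in old replicate 1 (420 reads) and 26.0 CPM in old replicate 2 (1870 reads). The old livers were thus the lowest and the highest of the 4, and the 95% interval of the log2 fold change ran from -2.36 to 2.11. The urea cycle enzymes CPS1 and ASS1, singled out beside it, were also lowest in old replicate 1. CPS1 had 323 and 255 CPM in YL, 61.6 in old replicate 1 and 169 in old replicate 2. For ASS1 the values were 1498 and 1064 CPM in YL and 243 and 694 CPM in OL. Both enzymes were below the young livers in old replicate 2 as well, where SLC25A15 was above them. The other enzymes of the cycle in the list did not all follow: OTC, which uses the ornithine, had 95.7 and 116 CPM in YL against 59.2 and 108 CPM in OL and overlapped, as did ASL at 130 and 150 against 143 and 133 CPM, whereas ARG1 was lower in both OL at 115 and 137 CPM against 207 and 144 CPM.

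SLC25A38, the glycine carrier needed for haem synthesis, had 2.44 and 1.70 CPM in the YL and 4.31 and 2.52 CPM in the OL. The log2 fold change was 0.50 (± 0.290 SE, limma adjusted p = 0.507), and old replicate 2 lay only just above young replicate 1. This value became 0.21 on dropping old replicate 1, 0.33 on dropping young replicate 2 and 0.80 on dropping old replicate 2. The branched-chain amino acid carrier SLC25A44 had overlapping groups, with 4.88 and 2.84 CPM in young liver and 3.82 and 4.12 CPM in old liver.

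SLC25A27 (ENSSSCG00000001720), also known as UCP4 and best known from the brain, had 24.1 and 22.9 CPM in the YL (2215 and 1986 reads) and 7.36 and 9.22 CPM in the OL (453 and 662 reads). The groups were far apart relative to the spread within them. The log2 fold change was -1.41 (± 0.158 SE, 95% interval from -1.89 to -0.93, limma adjusted p = 0.213). Dropping any single library gave between -1.55 and -1.26. In the RefSeq gene order its next gene is CYP39A1, an oxysterol hydroxylase of liver, which was looked up after the values of SLC25A27 had been seen. CYP39A1 had 16.6 and 10.5 CPM in YL and 2.71 and 5.60 CPM in OL, a log2 fold change of -1.52 (± 0.419 SE, limma adjusted p = 0.275). The 2 genes do not overlap in that annotation, and whether reads of one were counted for the other in the older assembly was not tested. The other uncoupling protein paralog, SLC25A14 (UCP5), had 2.68 and 2.65 CPM in YL and 0.942 and 2.30 CPM in OL, a log2 fold change of -0.53 (± 0.317 SE, limma adjusted p = 0.520), which was -0.15 without old replicate 1 and -0.92 without old replicate 2.

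The citrate carrier SLC25A1 (ENSSSCG00000010116) supplies citrate to the cytosolic lyase ACLY. It was at 17.8 and 16.8 CPM in the YL (1637 and 1457 reads), 8.47 CPM in old replicate 1 (521 reads) and 18.3 CPM in old replicate 2 (1318 reads). Old replicate 1 was far below the other 3 livers, among which the values were close. ACLY itself was higher in both OL, with 6.86 and 2.21 CPM against 16.6 and 7.71 CPM (log2 fold change 1.30, ± 0.652 SE, limma adjusted p = 0.453).

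The glutathione carrier SLC25A39 had nearly the same level in all livers, with 19.9 and 22 CPM in YL and 20.3 and 25.1 CPM in OL. The 95% interval of its log2 fold change ran from -0.40 to 0.61. Its paralog SLC25A40 had 1.48 and 1.56 CPM in young liver and 1.14 and 0.654 CPM in old liver, a log2 fold change of -0.42 (± 0.181 SE, limma adjusted p = 0.401), or -0.24 without old replicate 2. SLC25A40 overlaps DBF4 and RUNDC3B in the RefSeq annotation. There, other protein-coding genes also overlap SLC25A15, SLC25A26, SLC25A35, SLC25A43 and SLC25A53. Whether reads were shared in these overlaps was not tested.

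Among the remaining members, SLC25A46, an outer membrane protein that shapes mitochondria, had 3.39 and 2.59 CPM in the YL and 1.67 and 1.38 CPM in the OL (log2 fold change -0.65, ± 0.169 SE, limma adjusted p = 0.267). SLC25A35 was scarce, with 0.414 and 0.555 CPM in YL and 0.081 and 0.195 CPM in OL on 5 to 48 reads, so that all old values were below the young ones at few reads. SLC25A47, a carrier largely restricted to liver, had 13.2 and 45.4 CPM in YL and 16.3 and 22.6 CPM in OL. Here the young livers held both the lowest and the highest value, and the 95% interval of the log2 fold change ran from -2.48 to 1.78.

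SLC25A48 varied more than any other carrier tested, with 6.29 and 3.02 CPM in the YL, 0.975 CPM in old replicate 1 (60 reads) and 19.3 CPM in old replicate 2 (1386 reads). Its standard error of 1.36 was the largest of the 30. SLC25A43 had 1.31 and 2.30 CPM in YL and 1.59 and 1.43 CPM in OL. SLC25A45 was at 0 and 0.786 CPM in YL and 0.894 and 0.084 CPM in OL. The age groups of these 3 carriers overlapped.

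The old livers were not alike in the carriers. Old replicate 1 was below both young livers for 18 of the 30 carriers tested (60.0%, against 35.4% of all mRNAs) and old replicate 2 for 15 (50.0%, against 35.5%). Relative to the young mean on log2(CPM + 1), the median carrier was at -0.44 in old replicate 1 and at -0.26 in old replicate 2, while the median of all mRNAs was -0.024 and -0.031. The carriers lowest in old replicate 1 relative to the young mean were SLC25A27 (-1.55), SLC25A48 (-1.45) and SLC25A20 (-1.41). SLC25A20 (-1.61) and SLC25A27 (-1.26) were also the lowest in old replicate 2. Among mRNAs with a mean of at least 1 CPM the shares below both young livers were 45.8% and 47.1%, against 60.0% and 52.0% of the 25 carriers at that level. The median of these 25 carriers was -0.56 in old replicate 1 and -0.18 in old replicate 2, against -0.14 and -0.18 for such mRNAs. In old replicate 2 the carriers were thus level with mRNAs of that abundance. The summed level of all 32 carriers was 333 and 395 CPM in the YL and 256 and 326 CPM in the OL, of which SLC25A4 is the largest part. All mRNAs together also summed to less in OL, with 408898 and 428910 CPM in YL against 365330 and 346173 CPM. The lower carrier sums are therefore not particular to the family.

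**Figure D3:**
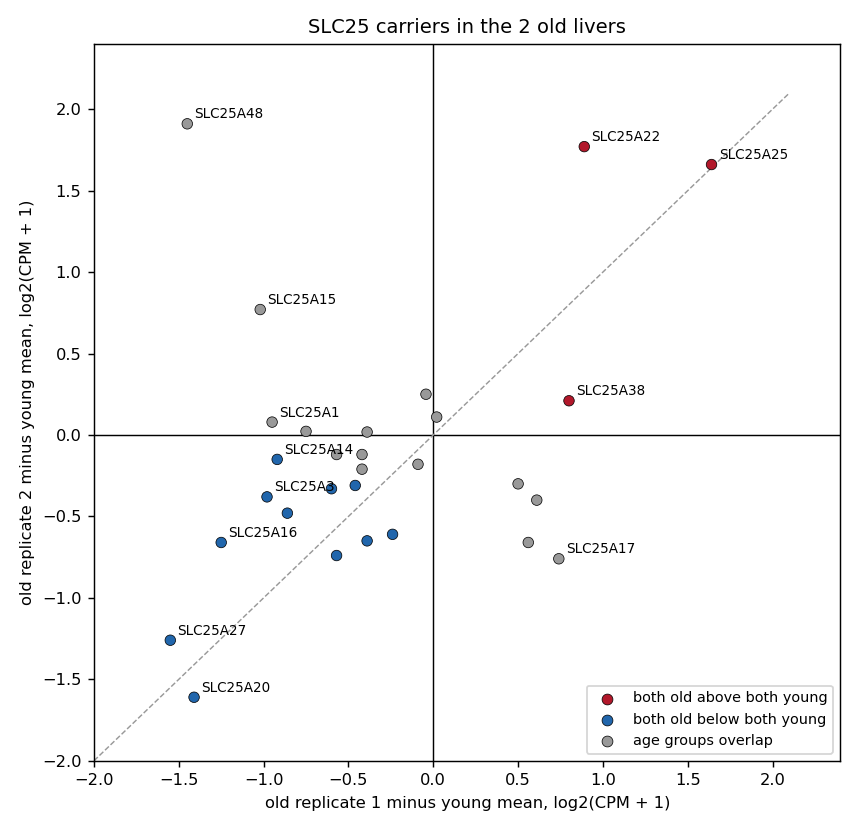
The value of 29 of the 30 carriers tested in old replicate 1 (x axis) and old replicate 2 (y axis), each as the difference from the mean of the young livers on log2(CPM + 1), with a dashed line of equal difference and colours for carriers whose age groups do not overlap. SLC25A20 and SLC25A27 are low and SLC25A25 is high in both old livers, whereas SLC25A48 and SLC25A15 are low in old replicate 1 and high in old replicate 2, and SLC25A17 the reverse.

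Genes that work beside the carriers were described from 5 lists of 61 symbols, of which 50 were tested and 0 passed in limma. At an unadjusted p-value under 0.05, 4 were higher and 4 lower in OL, which is 8% each way against 6.78% and 8.93% of all mRNAs. Both old libraries lay above both young ones for 12 and below for 12, 24% each way against 24.4% and 25.0%, so these genes as a whole were near the shares of all mRNAs. The median log2 fold change of these genes was -0.23. The exact test of edgeR called 2 of them higher (4%, against 2.70% of all mRNAs), LETM1 and SFXN3, and SFXN3, singled out for that call, was listed at 0 in both YL and at 0.341 and 0.334 CPM in OL.

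Carriers enter the inner membrane through the TOM receptors and channel, the small TIM chaperones and the TIM22 complex. The 8 genes tested from this list were TOMM20, TOMM22, TOMM40, TOMM70, TIMM22, TIMM29, AGK and SAMM50, and the small TIM chaperones were not analysed here. SAMM50 is in the list though it belongs to none of the complexes just named, and it is among the genes counted as higher. Both old libraries lay above both young ones for 6 of the 8 (75%, against 24.4% of all mRNAs) and below for 1 (12.5%, against 25.0%), with a median log2 fold change of 0.35, and 0 passed an unadjusted p-value under 0.05 in limma. TOMM20, an outer membrane receptor, had 9.05 and 9.19 CPM in YL and 11.4 and 12.6 CPM in OL (log2 fold change 0.36, ± 0.119 SE, limma adjusted p = 0.321). TOMM40, the channel, was at 13.2 and 11.1 CPM in young liver and 20.4 and 15.2 CPM in old liver (0.50, ± 0.210 SE, limma adjusted p = 0.391). TOMM22, another receptor, was lower, with 30.3 and 24.0 CPM against 15.7 and 19.6 CPM. The difference between this list and the carriers was not tested.

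The 13 other channels and transporters of mitochondria had a median log2 fold change of -0.34, with 4 lower (30.8%, against 25.0% of all mRNAs) and 3 higher (23.1%, against 24.4%) without overlap. SFXN1, the mitochondrial serine transporter, had 7.42 and 5.86 CPM in the YL and 2.42 and 3.09 CPM in the OL (log2 fold change -1.02, ± 0.187 SE, limma adjusted p = 0.228). VDAC1, the outer membrane channel that metabolites pass before they reach the carriers, had 27.1 and 26.7 CPM against 17.8 and 20.1 CPM (-0.49, ± 0.125 SE, limma adjusted p = 0.266). LETM1, an inner membrane cation exchanger, was the other way, with 0.642 and 0.751 CPM in YL and 3.92 and 2.67 CPM in OL (1.33, ± 0.200 SE, limma adjusted p = 0.213).

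Partner enzymes, which make or use what the carriers move, had a median log2 fold change of -0.39 over 20 genes. Without overlap, 7 were lower (35%, against 25.0% of all mRNAs and 32.8% of those with a mean of at least 1 CPM). In the other direction, 1 was higher without overlap (5%, against 24.4% and 17.8%). The summed level of the 20 enzymes was 2903 and 2474 CPM in YL, 1036 in old replicate 1 and 1886 in old replicate 2. Most of this difference came from ASS1 and CPS1, without which the other 18 summed to 1083 and 1155 CPM in YL and 731 and 1023 CPM in OL. GOT1, the cytosolic transaminase of the malate-aspartate shuttle, had 101 and 93.5 CPM in YL and 48.8 and 41.0 CPM in OL (-1.11, ± 0.150 SE, limma adjusted p = 0.213). The malate dehydrogenases of the same shuttle had overlapping age groups, with a log2 fold change of -0.36 for MDH1 and 0.11 for MDH2. Of the 5 regulators of mitochondrial content tested, with a median log2 fold change of -0.25, ESRRA was higher at 15.3 and 16.5 CPM in OL against 10.4 and 7.44 CPM in YL (0.78, ± 0.204 SE, limma adjusted p = 0.267). The 4 genes of the carrier fold or of pyruvate import under other symbols, UCP2, UCP3, MTCH1 and MPC2, all had overlapping age groups and a median of 0.049.

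**Figure D4:**
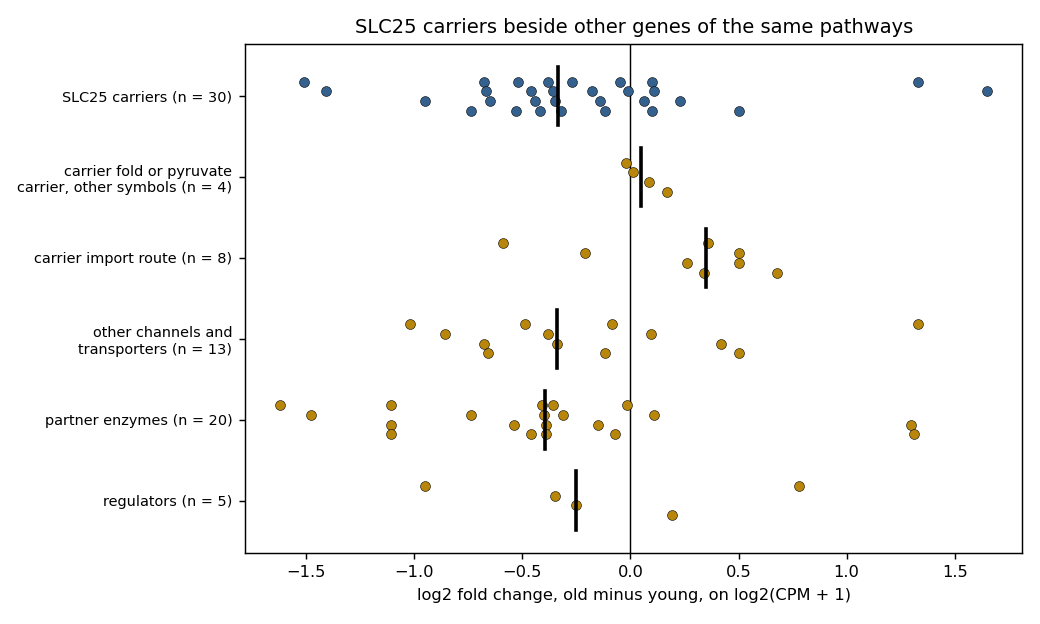
Log2 fold change of old minus young liver on log2(CPM + 1) (x axis) for each carrier tested and each tested gene of the 5 lists, with a black bar at the median of each group. The medians are -0.33 for the carriers, 0.35 for the import route and -0.39 for the partner enzymes.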

How the data were processed

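RNA-seq libraries of 2 young and 2 old livers were used. For mRNAs the authors deposited values named TPM, made with TopHat2 2.0.14 on Sscrofa10.2, StringTie 1.2.3 and Salmon 0.6.0, per the labels and the study's methods. The deposited values are CPM: in each library 100% of those above 0 came out, to within their rounding, as multiples of the value of 1 read, by which they were divided to recover reads. Their number limits precision for counting error only. Read totals are 37555696 and 37125093 in YL and 22482241 and 24866406 in OL. The tables of lncRNAs, circRNAs and miRNAs were not used.

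Symbols came from an Ensembl name table, and gene neighbours from RefSeq (Sscrofa11.1). RNA of YL and OL was compared with limma 3.58.1 (R 4.3.3) on log2(CPM + 1), two-sided, with Benjamini-Hochberg adjustment over 16898 mRNAs. The exact and quasi-likelihood tests of edgeR 4.0.16 used recovered reads. Tests were tried on simulated counts. Carriers with no overlap and an absolute log2 fold change above 0.5, and 10 liver carriers fixed by name, were described first by rule, and then the rest. Values of 1 carrier and 1 listed gene are not reported here one by one, though the counts and medians include them. From each list, up to 2 genes per direction with the smallest p-value, a mean of at least 1 CPM and no overlap were named. Members and lists were chosen with earlier results of these data known. Alternatives covered pseudocount, filter, scaling, variance model, replicate block, test and each library left out.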

Additional observations from a re-analysis of the deposited data

How the results depend on the processing

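The number of mRNAs called was 0 in limma, 2 when a mean of at least 1 CPM was required and 534 in the exact test of edgeR, which also called 1 carrier and 2 genes of the lists beside them. The median log2 fold change of the carriers was -0.16 with TMM scaling and -0.19 with median-of-ratios scaling, against medians of 0.036 and 0.03 over all mRNAs, and it stayed below 0 under every alternative run. The carriers with both old libraries above both young ones were 8 without young replicate 2, 7 without old replicate 1 or old replicate 2 and 4 without young replicate 1, where non-overlap is easier by construction (34.5% to 40.7% of mRNAs), and 15 to 18 then lay below (35.4% to 41.9% of mRNAs). With the replicate block the median was -0.33 and no call was made. Same-numbered libraries share only a number, and their deviations correlated at 0.0902.

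Of 385 fold changes of single carriers under an alternative, 352 kept their direction and side of the threshold, 1 passed it (SLC25A25 in the exact test of edgeR, 2.43) and 32 reversed, none of them past the threshold. The reversals concern 14 of the 30 carriers, all with overlapping age groups. SLC25A17 was at 0.18 with TMM, 0.16 with median-of-ratios scaling and 0.38 in both edgeR tests, SLC25A15 at 0.062, 0.040 and 0.32, and SLC25A5 at 0.14, 0.12 and 0.28. With 1 library left out the ranges were -0.76 to 0.74 for SLC25A17, -1.02 to 0.77 for SLC25A15, -0.66 to 0.56 for SLC25A5, -0.95 to 0.079 for SLC25A1, -0.75 to 0.022 for SLC25A4, -0.39 to 0.018 for SLC25A23, -0.80 to 0.17 for SLC25A24, -0.043 to 0.25 for SLC25A39, -0.40 to 0.61 for SLC25A42, -0.39 to 0.12 for SLC25A43, -0.24 to 0.37 for SLC25A44, -0.32 to 0.52 for SLC25A45, -1.20 to 0.51 for SLC25A47 and -1.45 to 1.91 for SLC25A48. The cause of the other differences between settings was not tested. SLC25A53, with 7 reads in 1 library, and SLC25A35, with 5 to 48 reads, are limited by depth.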

Other observations

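The genes next to the 2 carriers with the highest fold changes, looked up after those values had been seen, were measured as well. PTGES2, next to SLC25A25 in the RefSeq gene order, was at 3.77 and 4.69 CPM in YL against 7.20 and 6.10 CPM in OL (log2 fold change 0.55 ± 0.167 SE, limma adjusted p = 0.296), while SLC25A25 had a log2 fold change of 1.65. Of the neighbours of SLC25A22, PIDD1 had 0.250 and 0.092 CPM in YL against 0.097 and 0.167 CPM in OL. CEND1 had no reads in YL and 4 and 5 reads in OL.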
